A study of Homo sapiens with 8 samples.

Results

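The 30 genes described here are the rows of the count table that carry the symbols of 8 pro-survival genes, 20 pro-death genes and 2 genes that act on both sides (RIPK1 and TRADD), out of 59023 genes in all. A498, a long-established human line from a clear cell renal carcinoma with mutated VHL, was grown in RPMI with 10% serum and was left untreated (libraries 1 to 4) or given 30 ng/ml IL1β for 4 h (libraries 5 to 8), with 4 libraries in each group. The study asked which genes IL1 regulates within renal cancer cells, and it describes 4 experimental pairs, but no label says which libraries form a pair. No label says that the 4 libraries of a group came from separate cultures, so p-values measure only the spread between libraries, which may be technical. Levels are CPM, counts relative to library totals after TMM scaling, edgeR's default. Of the 30 genes, 27 passed edgeR's filter on low counts and were tested with 15062 genes in all, and "rose" and "fell" are used only where the p adjusted by Benjamini and Hochberg (BH) was under 0.05 in edgeR's quasi-likelihood fit. Log2 fold changes are given ± their standard error (SE). In such bulk samples fewer cells of a type and less RNA per cell cannot be told apart.

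Whether a cell lives or dies after a cytokine signal is decided in part by the BCL2 family, the caspases and the complexes that form at death receptors. Guardian proteins such as BCL2, BCL-XL and MCL1 hold mitochondrial pore formers such as BAK in check, BH3-only proteins such as BID and BIM set them free, and the pore lets out proteins that switch on caspases through APAF1. At death receptors, FADD recruits caspase-8 and caspase-10, which CFLAR restrains, while RIPK1 and TRADD pass the same signal either to NF-kB or to cell death. Where caspase-8 is blocked, RIPK3 and MLKL carry out necroptosis. NF-kB, the pathway that IL1β switches on, is known to drive transcription of several pro-survival genes, among them BCL2A1 and CFLAR.

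The libraries held 15409093 to 27040505 counts, so that 1 count stands for 0.037 to 0.0649 CPM before scaling. Untreated 1 and IL1β 5 differed most from the rest: along principal component 1 (42.7% of variance) they had scores of -59.5 and -101.7, against 18.82 to 37.15 for the remaining 6 libraries. The renal marker PAX8 was at 107 to 519 CPM over all 8 libraries and vimentin (VIM) at 3313 to 4829 CPM, while the clear cell carcinoma markers CA9 and NDUFA4L2 did not exceed 5.80 and 0.882 CPM. Of 11 markers of leukocytes, endothelium and fibroblasts 4 passed the filter and none was called, and PTPRC and PECAM1 reached 0.514 and 1.03 CPM at most. LYZ, a gene of myeloid cells, had 531 counts (19.5 CPM) in untreated 1, 97 in IL1β 8 and 56 in untreated 4, and 0 to 9 counts in the other libraries. The summed level of the 11 was 47.3 to 1178 CPM in untreated and 89.9 to 429 CPM in IL1β libraries. The highest in each group were untreated 4 and IL1β 6, where the collagen gene COL1A1 stood at 680 and 273 CPM. The other fibroblast markers were also highest of their group there: COL1A2 at 431 and 134 CPM, DCN at 41.7 and 15.5, and PDGFRB at 21.1 and 6.05. The part of these markers in the results below was not tested. All 5 genes listed as controls of the NF-kB response lay higher in every IL1β library than in every untreated one, beside 4.6% of all genes tested. Of the 5, NFKBIZ, ICAM1 and CXCL8 rose, beside 0.929% of all genes tested.

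With IL1β 3 of the 27 genes rose and none fell: TNFAIP8, a pro-survival gene, and the pro-death genes BID and CASP10. This is 3 of 27, where 0.929% of all genes tested rose and 0.0598% fell. At an unadjusted p under 0.05, 8 of the 27 were higher and 1 was lower, beside 6.23% and 4.55% of all genes. In 7 of the 27 every IL1β library lay above every untreated library (BCL2A1, CFLAR, TNFAIP8, BID, BIK, BAK1 and CASP10) and in none below, where 4.6% and 3.41% of all genes did so. Thus 4 of the 7 separated genes did not pass the test across all genes. DESeq2 called all 7 higher and none of the 27 lower, beside 2.81% and 0.724% of all genes.

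**Figure D1:**
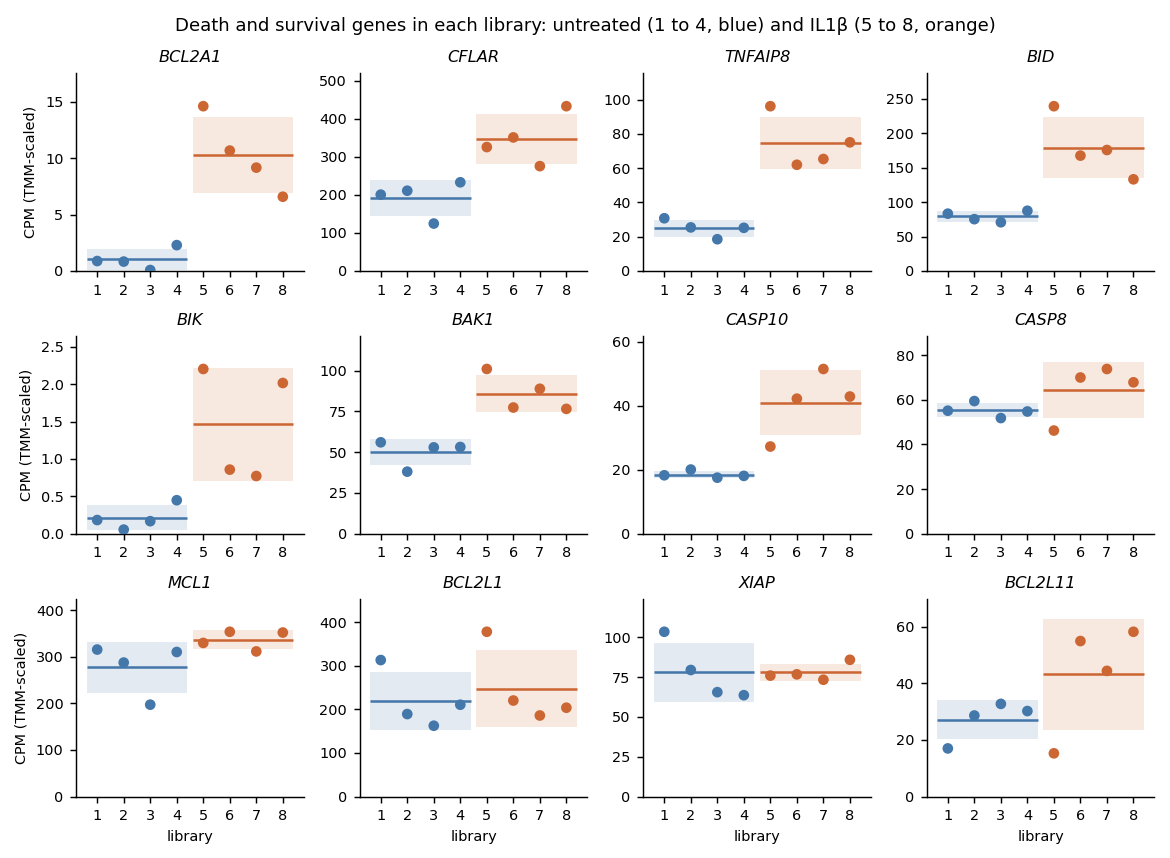
TMM-scaled CPM of 12 genes (vertical axes, from 0) in untreated libraries 1 to 4 (blue) and IL1β libraries 5 to 8 (orange), each point a library, with the group mean as a line and 1 SD as a band. In the first 7 panels all IL1β points lie above all untreated points; in the other 5, from CASP8 to BCL2L11, the groups overlap.

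Pro-survival and pro-death genes had medians close to each other. The 8 pro-survival genes had a median log2 fold change of 0.27, with 6 of 8 positive, and the 17 tested pro-death genes had a median of 0.29, with 11 of 17 positive. Over all genes tested the median was -0.02, and 47.8% of genes were positive. Of the pro-survival genes 1 rose and 3 had no overlap between the groups, and of the pro-death genes 2 rose and 4 had no overlap. With RIPK1 and TRADD counted as pro-death the median of that side was 0.34. In single libraries, the median of the pro-survival genes relative to the untreated mean was 0.19 to 0.63 on the log2 scale with IL1β and -0.40 to 0.26 without, so the groups overlapped. The median of the pro-death genes was 0.15 to 0.36 with IL1β and -0.09 to 0.09 without, and the groups did not overlap. No test was run over the members, since they were chosen with earlier results of these data known.

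**Figure D2:**
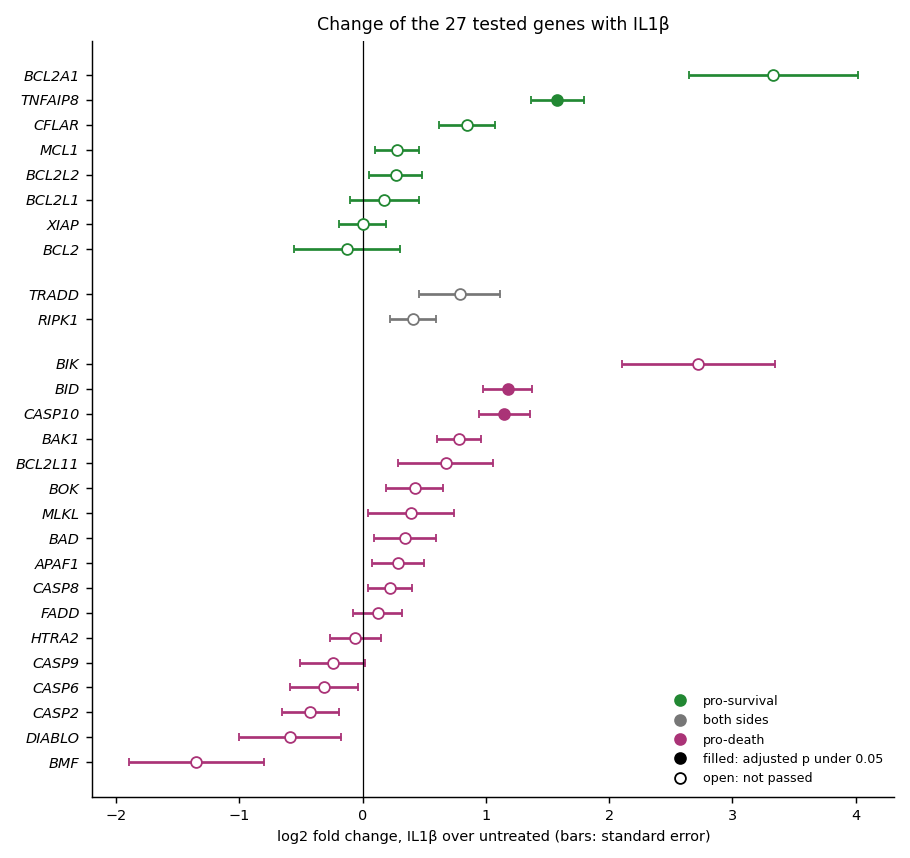
Log2 fold change of IL1β over untreated cells (horizontal axis) for the 27 tested genes, with the standard error as bars, grouped as pro-survival (green), acting on both sides (grey) and pro-death (purple). The 3 filled points, TNFAIP8, BID and CASP10, passed at an adjusted p under 0.05 in edgeR's quasi-likelihood test, and positive and negative values occur on both the pro-survival and the pro-death side.

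TNFAIP8 encodes a cytosolic protein induced by TNF and NF-kB that has been described as an inhibitor of caspase-8 activity. On hg38 the gene spans bases 119268692 to 119399688 of chromosome 5, forward strand. Its level was 30.8, 25.4, 18.5 and 25.2 CPM in untreated libraries 1 to 4 and 96.2, 62.0, 65.4 and 75.1 CPM in IL1β libraries 5 to 8. The lowest IL1β library thus lay well above the highest untreated one, and untreated 1 and IL1β 5 were each the highest of their group. The mean rose from 25.0 ± 5.02 to 74.7 ± 15.4 CPM (SD, n = 4 each), which is a log2 fold change of 1.58 ± 0.21 (SE; BH-adjusted p = 0.0115 by quasi-likelihood in edgeR). The adjusted p was 0.0503 without IL1β 8, and 0.00922 to 0.0479 without any other library. Without both untreated 1 and IL1β 5 the log2 fold change was 1.57 (adjusted p = 0.00218).

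BID encodes the BH3-only protein that caspase-8 cleaves, and through which a death receptor signal reaches the mitochondria. The gene lies on chromosome 22 from 17734138 to 17774770 on the reverse strand. It stood at 83.2, 75.2, 70.7 and 87.4 CPM in untreated libraries 1 to 4 and at 239, 168, 176 and 133 CPM in IL1β libraries 5 to 8. The untreated libraries were close together, and among IL1β libraries number 5 was the highest. BID rose from 79.1 ± 7.56 to 179 ± 44.3 CPM (SD, n = 4 each), which is a log2 fold change of 1.18 ± 0.20 (SE; BH-adjusted p = 0.0290 by the same test). Leaving out any of untreated 1 to 4 or IL1β 6 or 7 gave an adjusted p of 0.0594 to 0.116, with a log2 fold change of 1.13 to 1.23. Without both untreated 1 and IL1β 5 it was 1.05 (adjusted p = 0.0136).

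CASP10 encodes an initiator caspase that is recruited by FADD as caspase-8 is. It was even across the untreated libraries, at 18.3, 20.1, 17.5 and 18.1 CPM, and stood at 27.3, 42.2, 51.5 and 42.9 CPM in IL1β libraries 5 to 8. IL1β 5 was the lowest of the treated group here, yet above every untreated library. CASP10 rose from 18.5 ± 1.10 to 41.0 ± 10.1 CPM (SD, n = 4 each), which is a log2 fold change of 1.15 ± 0.21 (SE; BH-adjusted p = 0.0358 by quasi-likelihood in edgeR). Leaving out any library but IL1β 5 gave an adjusted p of 0.0711 to 0.133, and scaling by library size only gave 0.100. Without IL1β 5 the log2 fold change was 1.30 (adjusted p = 0.00490), and without both untreated 1 and IL1β 5 it was 1.32 (adjusted p = 0.00321).

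CASP10 is the middle of 3 neighbours on chromosome 2, all read on the forward strand of hg38: CFLAR (201116154 to 201176687), CASP10 (201182872 to 201229428) and CASP8 (201233443 to 201361836). The gap between CFLAR and CASP10 is 6184 bases and that between CASP10 and CASP8 is 4014 bases. CFLAR, which resembles caspase-8 but lacks its protease activity, stood at 201, 211, 125 and 233 CPM without and at 326, 351, 276 and 434 CPM with IL1β. The groups did not overlap (means of 193 ± 47.2 and 347 ± 65.9 CPM, SD, n = 4 each), but CFLAR did not pass, with a log2 fold change of 0.85 ± 0.23 (SE; BH-adjusted p = 0.153 by quasi-likelihood in edgeR, and 0.0284 in DESeq2). The table counts the gene as a whole, so the long and short CFLAR proteins cannot be told apart. CASP8, the initiator caspase of death receptors, stood at 55.1, 59.4, 51.8 and 54.7 CPM without and at 46.2, 69.96, 73.8 and 67.8 CPM with IL1β, so that IL1β 5 lay below all untreated libraries and the other treated libraries above them. Its log2 fold change was 0.22 (SE 0.18, BH-adjusted p = 0.731 by the same test).

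CFLAR is the separated gene with a match to the NF-kB consensus in a reference promoter, and its sequence is shown for that reason. The match was found in 1 of its 4 promoters, and binding of NF-kB was not tested. The promoters that RefSeq gives on GRCh38.p14, 250 bases before to 50 bases after each start site, were searched on both strands for the NF-kB (kB) consensus. Of the 30 genes 24 had a promoter, 50 promoters in all, and 3 genes (12.5%) held a match in at least 1 promoter: CFLAR, BMF and CRADD. Among all genes 7.09% held a match, and by promoters the shares were 6% and 5.91%. The promoters of TNFAIP8, BID, BCL2A1 and BAK1 held none in this window, while CASP10 and BIK were not among the promoters searched. The CFLAR match lies 97 to 88 bases before the start site at 201118716, on the forward strand. The 250 bases before that start site (chr2:201118466-201118715, forward strand) are printed with the match in capitals, and below them the 250 bases before the start site of BCL2A1 (chr15:79971197-79971446, reverse strand), the gene with the largest fold change of the 27, which hold no match.
CFLAR: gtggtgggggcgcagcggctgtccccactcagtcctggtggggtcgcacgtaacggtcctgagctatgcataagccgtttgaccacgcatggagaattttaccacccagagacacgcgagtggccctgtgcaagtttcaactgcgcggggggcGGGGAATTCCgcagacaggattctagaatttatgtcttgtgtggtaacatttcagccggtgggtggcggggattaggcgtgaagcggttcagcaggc
BCL2A1: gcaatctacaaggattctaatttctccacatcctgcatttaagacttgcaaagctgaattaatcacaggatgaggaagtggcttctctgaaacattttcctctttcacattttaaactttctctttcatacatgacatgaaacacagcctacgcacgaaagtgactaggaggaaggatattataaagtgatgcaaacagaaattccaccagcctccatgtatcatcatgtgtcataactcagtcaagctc

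Among the guardians of the BCL2 family, BCL2A1 moved most. BCL2A1 encodes BFL-1, which binds BH3-only proteins such as BID and BIM. It was at 0.880, 0.831, 0.0840 and 2.29 CPM in untreated libraries 1 to 4 (24, 15, 2 and 46 counts) and at 14.6, 10.7, 9.17 and 6.59 CPM in IL1β libraries 5 to 8 (199, 249, 190 and 98 counts). The groups did not overlap, and untreated 4 was the highest and untreated 3 the lowest of the untreated group. Those libraries were also the highest and the lowest of that group for the NF-kB controls ICAM1 (667 and 137 CPM) and CXCL8 (477 and 26.01 CPM), whose part in the result was not tested. The mean went from 1.02 ± 0.921 to 10.3 ± 3.36 CPM (SD, n = 4 each), which is a log2 fold change of 3.33 ± 0.69 (SE; BH-adjusted p = 0.0619 by quasi-likelihood in edgeR). It therefore did not pass. The adjusted p was 1.0e-05 in DESeq2 and 0.0362 in limma-voom, and with 1 library left out it was 0.0493 without untreated 3, 0.0304 without untreated 4 and 0.0771 to 0.209 in the other 6 fits. Without both untreated 1 and IL1β 5 it was 0.0819.

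The other 4 guardians did not pass and their groups overlapped. MCL1, a short-lived guardian, stood at 315, 287, 197 and 310 CPM without and at 330, 354, 311 and 352 CPM with IL1β (0.28 ± 0.18 on the log2 scale, BH-adjusted p = 0.659 by quasi-likelihood in edgeR). Only untreated 3 lay far below the rest. BCL2L1, which encodes BCL-XL, stood at 313, 189, 163 and 211 CPM without and at 378, 220, 186 and 204 CPM with IL1β (0.17 ± 0.28 on the log2 scale, BH-adjusted p = 0.892). Its 2 highest libraries were untreated 1 and IL1β 5, and without IL1β 5 its log2 fold change was -0.11. BCL2 itself was scarce, at 3.34, 6.82, 5.71 and 9.61 CPM without and 2.57, 6.05, 5.11 and 9.54 CPM with IL1β (-0.13 ± 0.43 on the log2 scale, BH-adjusted p = 0.958), and untreated 1 and IL1β 5 were the lowest libraries. BCL2L2, which encodes BCL-W, averaged 25.6 ± 6.29 and 30.8 ± 5.09 CPM (log2 fold change 0.27 ± 0.22, adjusted p = 0.729), and 16.8% of its exon bases are shared with the BCL2L2-PABPN1 readthrough on the same strand.

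XIAP, which binds and blocks caspases directly, stood at 103, 79.4, 65.5 and 63.6 CPM in untreated libraries and at 75.9, 76.7, 73.3 and 85.8 CPM with IL1β. The means of 78.0 ± 18.4 and 77.9 ± 5.46 CPM (SD, n = 4 each) differed by less than the spread between libraries (log2 fold change -0.0013 ± 0.19, BH-adjusted p = 0.999 by quasi-likelihood in edgeR). Its antagonists from the mitochondria, DIABLO and HTRA2, averaged 3.91 ± 1.93 and 37.7 ± 6.40 CPM without and 2.60 ± 0.738 and 36.1 ± 7.84 CPM with IL1β, and neither passed (log2 fold changes of -0.59 ± 0.41 and -0.06 ± 0.21, adjusted p = 0.697 and 0.958). For DIABLO 31.5% of the exon bases are shared with other annotated genes on the same strand, so its counts may be incomplete where reads shared between genes were not counted. Of the other IAP genes, relatives of XIAP, 4 of 6 were tested and none passed. Of these BIRC3 and BIRC2 lay higher in every IL1β library (log2 fold changes of 2.21 and 0.75, adjusted p = 0.0759 and 0.357), beside 4.6% of all genes tested.

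Both tested pore formers had positive changes. BAK1, the gene of BAK, stood at 56.1, 38.1, 52.9 and 53.2 CPM without and at 101, 77.4, 88.9 and 76.6 CPM with IL1β, with no overlap. The means were 50.1 ± 8.12 and 86.0 ± 11.5 CPM (SD, n = 4 each), which is a log2 fold change of 0.78 ± 0.18 (SE; BH-adjusted p = 0.0934 by quasi-likelihood in edgeR, 0.00584 in DESeq2). BOK, a relative of BAK that can act without the guardians, averaged 32.1 ± 9.28 and 43.0 ± 6.64 CPM (log2 fold change 0.42 ± 0.23, BH-adjusted p = 0.581), and the groups overlapped.

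The BH3-only genes did not move as a block. Of the 6, BID rose, 4 did not pass and HRK was not tested. BIK, whose protein sits at the endoplasmic reticulum, was very low at 0.183, 0.0554, 0.168 and 0.448 CPM without (5, 1, 4 and 9 counts) and at 2.20, 0.858, 0.772 and 2.02 CPM with IL1β (30, 20, 16 and 30 counts). The groups did not overlap (log2 fold change 2.72 ± 0.62, BH-adjusted p = 0.0887 by quasi-likelihood in edgeR). BCL2L11, which encodes BIM, a BH3-only protein that binds every guardian, stood at 17.0, 28.7, 32.8 and 30.2 CPM without and at 15.3, 55.0, 44.4 and 58.3 CPM with IL1β. Untreated 1 and IL1β 5 were the 2 lowest of the 8 libraries, and the other treated libraries lay above all untreated ones. With all libraries its log2 fold change was 0.67 (SE 0.38, BH-adjusted p = 0.604), and without untreated 1 and IL1β 5 it was 0.80 (SE 0.15, BH-adjusted p = 0.0312 by the same test). BMF, which is held at the cytoskeleton until released, was the 1 gene of the 27 that was lower at an unadjusted p under 0.05: it stood at 1.47, 5.65, 10.8 and 6.18 CPM without and at 1.47, 3.82, 2.27 and 1.81 CPM with IL1β (-1.35 ± 0.55 on the log2 scale, BH-adjusted p = 0.401). Untreated 1 was as low as the lowest IL1β library, number 5. BAD, controlled by phosphorylation, averaged 19.5 ± 6.56 and 24.8 ± 3.25 CPM (log2 fold change 0.34 ± 0.25, adjusted p = 0.714).

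Besides CASP8 and CASP10, the apoptotic caspases had negative log2 fold changes and none passed. CASP2 averaged 64.0 ± 13.9 CPM without and 47.6 ± 11.4 CPM with IL1β (-0.43 ± 0.23 on the log2 scale, adjusted p = 0.578 by quasi-likelihood in edgeR). CASP6, an effector caspase, averaged 22.9 ± 7.58 and 18.4 ± 3.71 CPM (-0.31, adjusted p = 0.759). CASP9, the caspase that APAF1 activates on the apoptosome, averaged 5.65 ± 0.488 and 4.79 ± 1.38 CPM (-0.24, adjusted p = 0.811). APAF1 stood at 24.7, 29.2, 25.3 and 28.6 CPM without and at 21.3, 32.5, 36.5 and 41.1 CPM with IL1β, and again IL1β 5 lay below the untreated libraries and the other treated libraries above them (log2 fold change 0.29 ± 0.21, BH-adjusted p = 0.715).

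In the death complexes no gene passed. RIPK1, the kinase and scaffold, stood at 44.3, 32.4, 31.0 and 35.1 CPM without and at 58.6, 46.0, 41.2 and 43.9 CPM with IL1β (0.41 ± 0.18 on the log2 scale, BH-adjusted p = 0.468 by quasi-likelihood in edgeR), and untreated 1 overlapped the treated group. TRADD, the adaptor of TNF receptor 1, stood at 22.9, 14.4, 19.5 and 26.5 CPM without and at 62.8, 29.8, 25.1 and 26.1 CPM with IL1β (0.79 ± 0.33 on the log2 scale, BH-adjusted p = 0.423). Much of its difference lay in IL1β 5, without which the log2 fold change was 0.37. FADD, the adaptor of caspase-8, stood at 48.5, 41.1, 48.2 and 47.9 CPM without and at 71.0, 43.3, 44.8 and 42.8 CPM with IL1β, so that 3 of 4 treated libraries lay within the untreated range (log2 fold change 0.12 ± 0.20, BH-adjusted p = 0.894). MLKL, the executor of necroptosis, stood at 68.7, 34.9, 24.5 and 33.2 CPM without and at 82.2, 49.0, 40.4 and 40.3 CPM with IL1β (0.39 ± 0.35 on the log2 scale, BH-adjusted p = 0.762). Its high libraries were untreated 1 and IL1β 5.

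The genes that the filter removed were HRK, RIPK3 and CRADD. RIPK3, the kinase that activates MLKL, had 1 count in untreated 1, 1 count in IL1β 8 and 0 in the other 6 libraries, and HRK, a BH3-only gene of neurons, had 0 in all 8. A count of 0 allows up to 3 counts in a library, which is 0.11 to 0.22 CPM here. At this depth RIPK3 mRNA was therefore hardly detectable while MLKL mRNA was measured at 24.5 CPM or more in every library. CRADD, the adaptor of caspase-2, had 0 to 17 counts in untreated and 0 to 4 counts in IL1β libraries (0.322 ± 0.365 and 0.0903 ± 0.139 CPM; exact permutation test, two-sided p = 0.371).

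Untreated 1 and IL1β 5 were also the libraries that most often lay at an edge of their group. Of the 27 genes IL1β 5 was the highest or lowest of the treated libraries in 23, and untreated 1 of the untreated libraries in 17, while the other 6 libraries were at an edge in 5 to 16. In 6 genes both were the highest of their group (BCL2L1, TNFAIP8, BAK1, RIPK1, MLKL and FADD), in 7 both were the lowest (BCL2, BCL2L2, BMF, BCL2L11, CASP2, CASP6 and APAF1), and in 1, HTRA2, they were at opposite edges. Without these libraries, 13 of the 27 genes lay higher in all 3 IL1β libraries than in all 3 untreated ones and 1, BMF, lay lower, beside 11.6% and 8.43% of all genes. The 6 genes that joined the 7 above were MCL1, BCL2L11, CASP8, APAF1, RIPK1 and MLKL. In the same 6 libraries 4 of the 27 rose (TNFAIP8, BID, CASP10 and BCL2L11) and none fell, beside 2.5% and 0.357% of all genes. When all 8 libraries were kept and a term set untreated 1 and IL1β 5 against the rest, a fit added after the data were seen, 6 of the 27 rose (TNFAIP8, BID, CASP10, BCL2A1, BAK1 and BIK) and none fell, beside 3.21% and 1.06% of all genes. BCL2L11 did not pass in that fit (log2 fold change 0.56 ± 0.19, adjusted p = 0.142).

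**Figure D3:**
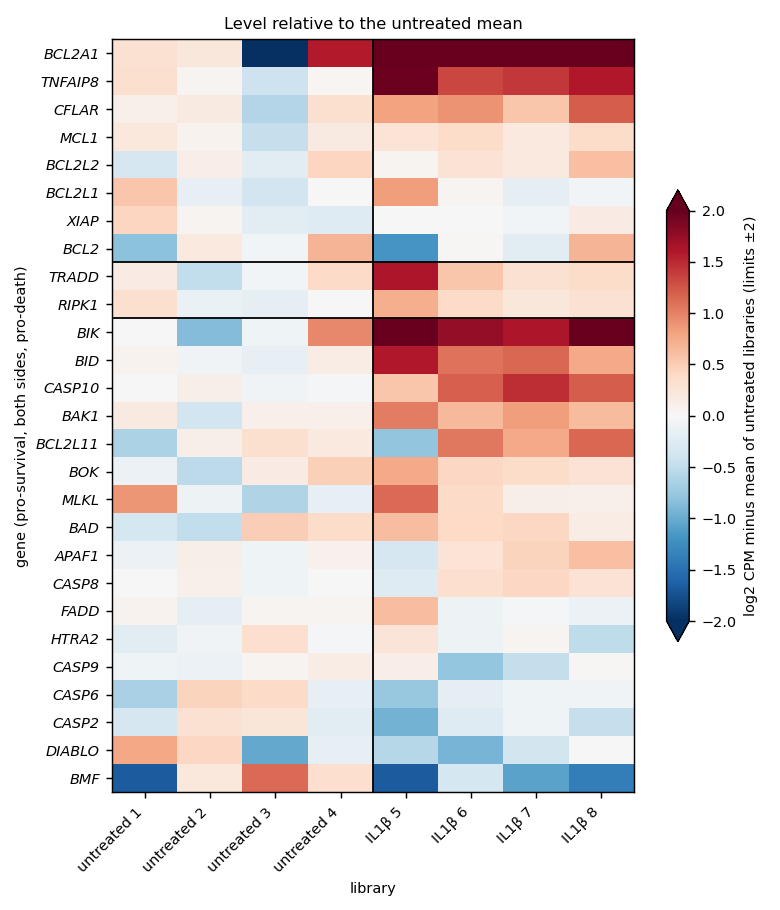
Log2 CPM (prior count of 2) of the 27 tested genes, in rows grouped as pro-survival, both sides and pro-death, minus the mean of the untreated libraries, for each of the 8 libraries in columns (red higher, blue lower, colours saturate at 2 in either direction). BCL2A1, TNFAIP8, CFLAR, BIK, BID, CASP10 and BAK1 are red in all 4 IL1β columns, while BCL2L11, BMF, CASP2, CASP6 and BCL2 are blue in both untreated 1 and IL1β 5.

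Ratios within a library do not depend on how libraries are scaled, and 4 pairs of genes with opposed roles were compared. The log2 ratio of CFLAR to CASP8 counts was 1.87, 1.83, 1.27 and 2.09 without and 2.82, 2.33, 1.90 and 2.68 with IL1β, a difference of 0.67 (exact permutation test, two-sided p = 0.0571, adjusted over the 4 pairs p = 0.114). Only untreated 4 and IL1β 7 kept the groups from separating. The log2 ratio of BCL2L1 to BAK1 counts was 2.48, 2.31, 1.62 and 1.99 without and 1.90, 1.51, 1.07 and 1.41 with IL1β, a difference of -0.63 (p = 0.0571 by the same exact permutation test, adjusted p = 0.114). Here untreated 3 lay within the treated range. The ratios of XIAP to DIABLO and of MCL1 to BCL2L11 differed by 0.49 and -0.24 (exact permutation test, two-sided p = 0.229 and 0.657, adjusted p = 0.305 and 0.657). None of the 4 differences passed, and with 4 libraries against 4 the exact permutation test cannot go below p = 0.0286.

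**Figure D4:**
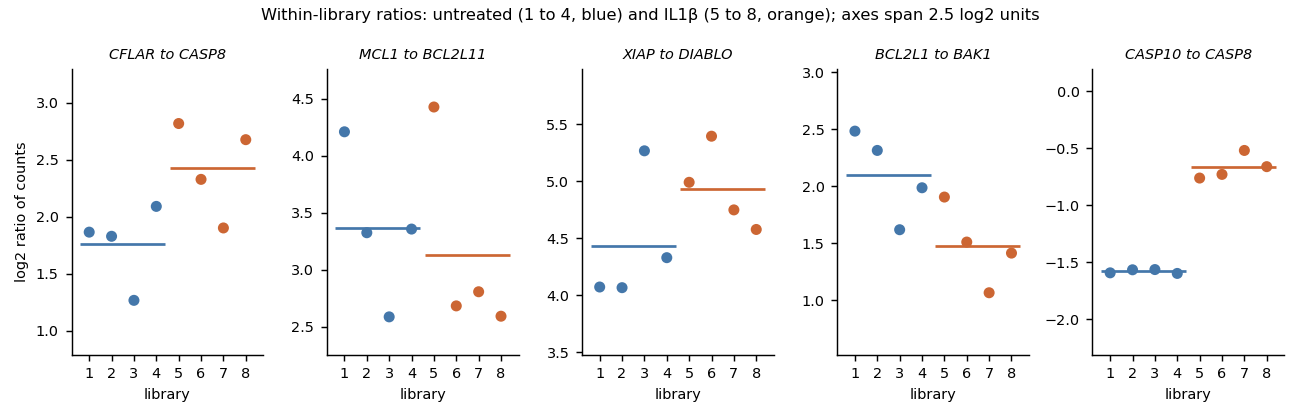
Log2 ratio of the counts of 2 genes within each library (vertical axes, each spanning the same width), for untreated libraries 1 to 4 (blue) and IL1β libraries 5 to 8 (orange), with group means as lines. The groups overlap for the first 4 pairs; the fifth pair, CASP10 to CASP8, chosen after its values were seen, lies near -1.58 in every untreated library and between -0.76 and -0.52 with IL1β.

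Per kilobase of exons, the most abundant of the 30 genes in untreated cells were BCL2L1 at 52.2 ± 15.7 CPM per kilobase and MCL1 at 44.6 ± 8.83 (SD, n = 4 each), which differed by less than their spread. FADD (27.2 ± 2.08), BAK1 (22.6 ± 3.67) and BID (17.9 ± 1.71) followed. BOK, CASP6, BAD, HTRA2, TRADD, CFLAR, XIAP, CASP2, CASP8 and MLKL lay between 12.0 and 7.09 with neighbours that overlapped in spread. At the lower end of the tested genes were BMF, CASP9, BCL2A1, DIABLO, BCL2 and BIK, from 1.11 down to 0.225. With IL1β the level of BCL2A1 per kilobase went from 1.03 ± 0.926 to 10.3 ± 3.38, from place 24 to place 11 of the 30 genes, and that of BID to 40.5 ± 10.0, place 3. The length used is the union of all GENCODE 44 exons of a gene, so a gene with long alternative exons, such as CFLAR with 22478 bases, is set lower than its main transcript would be.

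**Figure D5:**
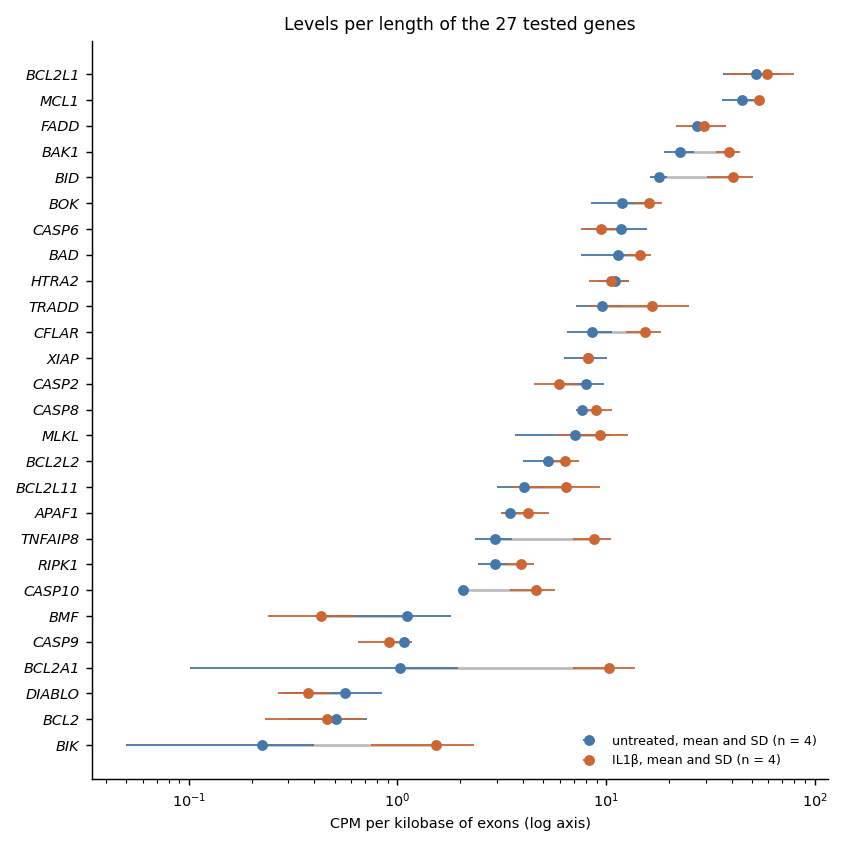
CPM per kilobase of exons (log axis) of the 27 tested genes in untreated (blue) and IL1β (orange) cells, as mean and SD over 4 libraries, ordered by the untreated level. BCL2L1 and MCL1 lie at the top in both groups, and the longest grey lines, which join the means of a gene, are those of BCL2A1 and BIK.

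The other genes of the pathway were counted in lists that the 30 genes are not part of. Of 10 other executors of apoptosis 3 rose, 7 did not pass and none fell, with a median log2 fold change of 0.43. Over all genes tested 0.929% rose and 0.0598% fell, and the median was -0.02. Among the 3 were the BH3-only genes BBC3, which encodes PUMA (18.1 ± 5.40 to 57.9 ± 12.4 CPM, log2 fold change 1.68, adjusted p = 0.0233 by quasi-likelihood in edgeR), and PMAIP1, which encodes NOXA (34.3 ± 7.48 to 91.2 ± 24.8 CPM, log2 fold change 1.41, adjusted p = 0.0358). With any 1 library left out their adjusted p-values ranged from 0.0250 to 0.0788 and from 0.00774 to 0.124. Without both untreated 1 and IL1β 5, 3 of the 10 rose, beside 2.5% of all genes. Of 13 death receptors and ligands 11 were tested and 1 rose, TNFSF10, the gene of the death ligand TRAIL (11.3 ± 2.002 to 67.6 ± 30.6 CPM, log2 fold change 2.58, adjusted p = 0.0145, and 0.000700 to 0.0587 with any 1 library left out). Its receptor genes TNFRSF10A and TNFRSF10B lay higher in every IL1β library without passing (log2 fold changes of 0.88 and 0.73, adjusted p = 0.129 and 0.278). The same held for TNFRSF11B, with a larger change (2.40, adjusted p = 0.0643). TNFRSF10C and TNFRSF10D overlapped between the groups (-0.25 ± 0.50 and -0.05 ± 1.11). TNFRSF10D stood at 452 CPM in untreated 1 and 464 CPM in IL1β 5, and at 32.4 to 58.4 CPM in the other libraries. In this list 5 of the 11 lay higher without overlap, beside 4.6% of all genes. Without both untreated 1 and IL1β 5, 4 of the 11 rose and none fell, beside 2.5% and 0.357% of all genes. With the term for these libraries, added after the data were seen, 5 rose and 1 fell, beside 3.21% and 1.06% of all genes. Of 15 genes listed as ubiquitin and kinase partners of the TNF receptor complex 14 were tested, 2 rose and none fell. The 2 were RIPK2, placed in this list though it is a kinase of the NOD receptors (log2 fold change 2.02, adjusted p = 0.00828), and TNIP1, a partner of A20 (log2 fold change 1.71, adjusted p = 0.0241, and 0.0122 to 0.107 with any 1 library left out).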

How the data were processed

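RNA of 8 A498 samples was sequenced from stranded TruSeq libraries. Trimmed reads were aligned by the authors (STAR 2.5.3a, hg38 genome), and the deposited table holds raw featureCounts counts, 1 column per library. For featureCounts, neither version nor annotation nor strand setting is given in the sources used here. Of 59050 entries, 27 that carried a date in place of a symbol (0.197% to 0.236% of counts) were left out. Libraries were compared pairwise for duplicates, and no pair came near sampling noise (lowest chi-square per gene 13.4).

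The main test was that of edgeR 4.0.16 under R 4.3.3 (filterByExpr, TMM, glmQLFit and glmQLFTest on the treatment alone), with Benjamini-Hochberg adjustment over 15062 genes. The standard error is the size of the log2 fold change divided by the square root of F. The procedure was tested on simulated data. Exact permutation tests ran over all 70 groupings, on ratios with 0.5 added to each count. Alternatives used DESeq2 1.42.0 and limma 3.58.1 (voom). Positions, exon lengths and overlaps are from GENCODE 44 on hg38, and promoters from RefSeq. The members and lists were chosen with earlier results of these data known. Values in every library are given for the members that separated or had a p under 0.05, and for 16 anchor genes listed in the analysis design, some of which are in both sets. Of each other list up to 3 genes that passed are named, except 1 that is not reported here, and any gene beyond that was chosen after its values were seen.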

Additional observations from a re-analysis of the deposited data

Results flagged for a closer look

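In 4 of 62 groups of 4 libraries (27 genes and 4 ratios in each treatment), 1 library lay far from the other 3 by Dixon's criterion, and chance flags about 1 in 20 groups. TRADD was at 62.8 CPM in IL1β 5 and at 25.1 to 29.8 CPM in the other treated libraries. FADD was at 71.0 CPM in IL1β 5 against 42.8 to 44.8 CPM in its group, and at 41.1 CPM in untreated 2 against 47.9 to 48.5 CPM. The log2 ratio of MCL1 to BCL2L11 was 4.43 in IL1β 5 and 2.59 to 2.81 in the other treated libraries.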

How the results depend on the processing

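Of the 30 genes 3 rose in edgeR with TMM. The number was 7 in DESeq2, 6 with a term for untreated 1 and IL1β 5, which was chosen after seeing the data, and 1 to 3 with each library left out in turn, and no member fell in any of these fits. TNFAIP8 passed in all but the fit without IL1β 8. Members higher without overlap numbered 7 to 10 with 1 library left out, members lower 0 to 1, and 13 and 1 without untreated 1 and IL1β 5.

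Over all genes 140 rose and 9 fell. The numbers were 423 and 109 in DESeq2, 378 and 54 without untreated 1 and IL1β 5, 484 and 159 with a term for them, and 38 to 218 and 0 to 12 with 1 library left out, 230 rose without the filter and 15 fell with upper-quartile factors. Scaling by library size only shifted the genome-wide median of log2 fold changes to -0.18 (from -0.02). The medians of both sides shifted with it, to 0.12 (from 0.27) for pro-survival and 0.14 (from 0.29) for pro-death members.

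Changes of sign occurred in genes near 0 that never passed: FADD (-0.048 with library size only and -0.047 without untreated 1 and IL1β 5), XIAP (0.022 in limma-voom and 0.022 with the term for untreated 1 and IL1β 5, 0.0041 without the filter and 0.20 without both libraries) and, with 1 library left out, XIAP (-0.085 to 0.17), BCL2 (-0.47 to 0.14), BCL2L1 (-0.11 to 0.40), FADD (-0.091 to 0.19), HTRA2 (-0.18 to 0.066) and the log2 ratio of MCL1 to BCL2L11 (-0.67 to 0.038). No paired analysis was possible because the labels do not say which libraries form the 4 pairs, and the term for untreated 1 and IL1β 5 was set from the data and is no pairing. HRK and RIPK3, with at most 1 count in any library, are limited by depth.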

Other observations

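Caspase-10 and caspase-8 are encoded by neighbouring genes and are recruited to the same complex. The ratio of their counts, chosen after the values were seen, was very even in the untreated group and less so with IL1β. The log2 ratio of CASP10 to CASP8 was -1.59, -1.56, -1.56 and -1.60 in untreated libraries 1 to 4 and -0.76, -0.73, -0.52 and -0.66 in IL1β libraries 5 to 8. The means of -1.58 ± 0.0177 and -0.67 ± 0.107 (SD, n = 4 each) differed by 0.91, and the ratio was higher in 4 of 4 treated libraries than in any untreated one. As the pair was picked for this separation, no test is given. Untreated 1 and IL1β 5, which stood apart in many of the 27 genes, did not stand apart in this ratio within their groups' ranges of -1.60 to -1.56 and -0.76 to -0.52, although IL1β 5 was the lowest treated library. The log2 ratio of CFLAR to CASP10 differed by -0.24 between the groups, with overlap.

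PAX8, a transcription factor of the renal lineage that was listed here only to check the cell line, rose with IL1β, its mean going from 150 ± 49.0 to 422 ± 72.4 CPM (SD over 4 libraries each). This was a log2 fold change of 1.495 ± 0.24 (SE; BH-adjusted p = 0.0239 by quasi-likelihood in edgeR, 0.00935 to 0.107 with any 1 library left out). It was at 136, 136, 107 and 220 CPM in untreated libraries 1 to 4 and at 519, 365, 368 and 438 CPM in IL1β libraries 5 to 8. The other 7 tested markers of that list did not pass.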
